A study of Mus musculus with 15 samples.

Results

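IL-10 producing group 2 innate lymphoid cells of the lung (ILC210) were compared with IL-10 producing regulatory T cells of the spleen (Treg10+). Both cell types came from 10BiT Foxp3-GFP dual reporter mice, in which Thy-1.1 placed in a bacterial artificial chromosome with Il10 marks cells that transcribe Il10, and GFP knocked into Foxp3 marks regulatory T (Treg) cells. All of the mice had received 500 ng IL-33 by intraperitoneal injection on 4 days, were 6 to 14 weeks old and of either sex, and cells of 5 mice were pooled for each experiment. There were 3 ILC210 libraries (Thy-1.1+ ILC2) and 2 Treg10+ libraries (IL-10+ splenic Treg cells), which make up 5 of the 15 libraries of the series. Another 5 libraries, from Thy-1.1- ILC2 (ILC2act, 3 libraries) and IL-10- splenic Treg cells (Treg10-, 2 libraries) of identically treated mice, were used to see where the difference between ILC2 and Treg cells depends on the reporter. The values are FPKM, that is, fragment counts divided by transcript length and by library size. A source label of the Treg libraries gives lung ILC2 where the titles give splenic Treg cells, and the levels of Foxp3, Cd3e and Cd4 given below go with the titles. The libraries of a group were made in separate experiments, and p-values measure the spread between them. Lineage and organ differ together in this comparison, so that effects of being an ILC2 rather than a Treg cell and of coming from lung rather than spleen cannot be told apart.

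ILC2 are tissue-resident lymphocytes without antigen receptors that respond to IL-33 through the receptor ST2, encoded by Il1rl1, and release IL-5, IL-13 and amphiregulin. Treg cells are CD4+ T cells that depend on the transcription factor FOXP3 and restrain immune responses through IL-10, CTLA-4, adenosine-forming enzymes and competition for IL-2. IL-10 itself is a cytokine that acts through the receptor chains encoded by Il10ra and Il10rb and through STAT3, and it is made by many kinds of lymphocytes and myeloid cells.

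Of 23532 genes with a value in all 5 libraries, 12184 were above 1 FPKM in at least 2 of them and were tested with limma on log2 of the FPKM floored at 1. A gene passed, and was called higher or lower in ILC210, when its adjusted p was below 0.05 and the groups differed 2-fold or more. Because of the floor, a difference is understated where a group lies under 1 FPKM. By this rule 1498 genes (12.3% of those tested) were higher in ILC210 and 878 (7.21%) were lower, and the median difference over the genes tested was 0.00. Counts of list members given below are to be read beside these shares. With quantile normalization 1199 genes were higher and 1231 lower, so that 49.3% of the calls were higher in place of 63%, with the median at -0.09. For 7047 genes (57.8%) the whole 95% interval of the difference lay within 1 log2 unit of 0.

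Depth was estimated from the steps of low FPKM values at about 17100000, 22800000 and 23900000 fragments in ILC210 libraries and 8630000 and 18100000 in Treg10+ libraries. At these depths between 49.7% and 58.2% of the low values came within 0.05 of a whole number of fragments, against 10% by chance. It follows that 3 fragments on a transcript of 1 kb correspond to between 0.157 and 0.219 FPKM in ILC210 and to 0.434 and 0.207 FPKM in Treg10+. Genes listed for other cell types differed in level between the groups. The 60 genes of 5 lung cell lists (alveolar type 2 and type 1 epithelium, club and ciliated cells, endothelium, mesenchyme) summed to 9066, 12800 and 18470 FPKM in ILC210, which is 1.56%, 2.3% and 3.41% of all FPKM, against 270.8 and 235.5 FPKM in Treg10+. None of the 60 was at 0 in an ILC210 library, whereas 29 and 25 were at 0 in the Treg10+ libraries. In ILC2act, from lungs of mice treated alike, the sum lay between 817.5 and 1325 FPKM, and among the 47 lung cell genes with a mean of at least 1 FPKM in ILC2act the level in ILC210 was a median of 11.8 times that in ILC2act (quartiles 9.6 and 13.6). On the spleen side, the summed erythroid and platelet genes reached 3089 and 6535 FPKM in Treg10+, against 206.6 to 570.5 FPKM in ILC210. In such sorted bulk samples fewer cells of a type and less RNA per cell cannot be told apart. The ILC2 had been sorted as lineage-negative cells carrying CD45, which epithelium and endothelium lack, Thy-1.2 and ST2, with purity above 95%. The part of RNA from other cells in the differences below was not tested, and the ratio between ILC210 and ILC2act is given beside several of them.

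Il10 was transcribed by both cell types and was more abundant in ILC210. Its level was 137, 155 and 113 FPKM in the 3 ILC210 libraries, against 31.0 and 24.2 FPKM in the 2 Treg10+ libraries. No ILC210 library overlapped a Treg10+ library, the ratio of the group means was 4.88, and the log2 difference was 2.29 (95% interval 1.88 to 2.69, limma adjusted p = 1.2e-04). The gene lies at chr1:131019845-131024970 (GRCm38). In the reporter-negative cells Il10 was at 16.02, 14.6 and 8.91 FPKM in ILC2act and at 0.572 and 1.06 FPKM in Treg10-, so that ILC210 had 10.2 times the mean of ILC2act. The ratio of 10.2 lies within the quartiles of the lung cell genes (9.6 and 13.6), and the part of lung cell RNA in it was not tested. Because the reporter was used to sort, the Il10 levels describe the sort as well as the cells.

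Foxp3, at chrX:7579676-7595243, had no overlap between the groups. The locus overlaps the annotated gene Ccdc22, and whether counting used strand is not given in the sources used here. Foxp3 was at 0.0173, 0.0376 and 0.0955 FPKM in ILC210, against 112 and 112 FPKM in Treg10+ (log2 difference -6.81 with ILC210 floored at 1 FPKM, adjusted p = 1.6e-06). Thus the libraries titled as Treg cells, and no ILC210 library, carried the gene that defines Treg cells. Since GFP in Foxp3 marks Treg cells in these mice, the Foxp3 level may describe the sort as well as the cells.

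Of 14 cytotoxic genes tested, 2 (Ctsw and Nkg7) were higher in ILC210, near the 12.3% of all genes, and 4 (Gzmb, Gzmc, Fasl and Tbx21) were lower, beside 7.21% of all genes (median log2 difference -0.09, with its sign turned without Treg10+ replicate 1). Gzmb (chr14:56258858-56262260), encoding the cytotoxic protease granzyme B, was lower in ILC210 at 50.3, 9.80 and 25.4 FPKM, against 435 and 309 FPKM in Treg10+ (log2 difference -3.98, 95% interval -5.42 to -2.55, adjusted p = 0.0028). The lowest ILC210 library, replicate 2, carries the tag 10Bit26 and the other 2 carry 10Bit22, whose meaning the labels do not give. The Gzmb call was lost when all 23532 genes were tested and with a test of each gene on its own. Gzma, encoding granzyme A, showed the same order of libraries within each group, but its levels lay higher in ILC210. It was at 1223, 82.6 and 405 FPKM in ILC210 against 58.8 and 29.5 FPKM in Treg10+. Gzma did not pass (log2 difference 3.05, 95% interval 0.68 to 5.42, limma adjusted p = 0.0569).

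Genes of ILC2 effector molecules were mostly higher in ILC210. Of 13 tested, 10 were higher in ILC210, none was lower, and the median log2 difference was 5.55, beside 0.00 over all genes tested. Areg, encoding the tissue repair growth factor amphiregulin, was at 888, 1093 and 863 FPKM in ILC210, against 8.67 and 3.48 FPKM in Treg10+ (log2 difference 7.42, adjusted p = 1.8e-05). Il13 was at 69.2, 77.3 and 59.5 FPKM in ILC210, against 0 and 0.329 FPKM in Treg10+ (log2 difference 6.09, adjusted p = 2.1e-06). Il5, encoding the eosinophil growth factor IL-5, had the largest log2 difference outside the lists of other cells, with 265, 570 and 298 FPKM in ILC210 against 0.519 and 0.331 FPKM in Treg10+ (8.48, adjusted p = 7.0e-06). In these 3 genes every ILC210 library was far above both Treg10+ libraries, and the levels in ILC2act were close to those in ILC210 (ratios of 1.28 for Areg, 0.791 for Il13 and 0.943 for Il5).

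The promoters of Areg (chr5:91139615-91148432) and Il13 (chr11:53631323-53634702) are shown because both genes stood far higher in ILC210. The sequences are the 100 bases before the RefSeq start site in GRCm38.p6, at chr5:91139499-91139598 on the plus strand for Areg and chr11:53634703-53634802 on the minus strand for Il13, written 5′ to 3′. Capitals mark a cyclic AMP response element (TGACGTCA), the GATA motif AGATAA and the TATA box (TATAAA, which overlaps its reverse complement TTTATA in Il13).
Areg: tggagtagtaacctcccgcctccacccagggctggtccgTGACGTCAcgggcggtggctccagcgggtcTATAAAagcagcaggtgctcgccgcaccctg
Il13: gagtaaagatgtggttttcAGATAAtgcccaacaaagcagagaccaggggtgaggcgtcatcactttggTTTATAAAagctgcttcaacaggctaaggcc
Searched on both strands in the 250 bases before the start site, TGACGTCA was found in 1.77% of 27025 genes, AGATAA or TTATCT in 11.4% and TATAAA or TTTATA in 14.3%. Among the 15 ILC2 effector genes with an entry, they were found in 1, 3 and 7 genes. A match of this kind is a description of the letters, not evidence of binding.

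Il4, Il6, Csf2 and Lif, which encode a type 2 cytokine, IL-6, the myeloid growth factor GM-CSF and leukemia inhibitory factor, were also higher in ILC210. Il4 was at 82.7, 79.0 and 70.1 FPKM in ILC210, against 2.11 and 0 FPKM in Treg10+ (log2 difference 5.73, adjusted p = 2.7e-05). Csf2 was at 44.8, 99.1 and 70.5 FPKM in ILC210, against 0 and 0.133 FPKM in Treg10+, and it was higher still in ILC2act, at 465, 596 and 633 FPKM. The chemokine gene Ccl1 showed the same order of groups, with 21.7, 52.5 and 31.1 FPKM in ILC210, 0.380 and 1.46 FPKM in Treg10+, and 338 to 358 FPKM in ILC2act. Both of these genes were thus highest in the ILC2 without the reporter. Arg1, encoding arginase, was at 468, 470 and 360 FPKM in ILC210, against 2.62 and 0.648 FPKM in Treg10+ (log2 difference 8.05, adjusted p = 1.7e-05). Retnla, encoding the secreted protein RELMα, was at 924, 524 and 1248 FPKM in ILC210, against 45.1 and 16.01 FPKM in Treg10+ (log2 difference 4.98, adjusted p = 4.2e-04). Its level in ILC210 was 13.9 times that in ILC2act, close to the upper quartile of the lung cell genes (13.6), whereas that of Arg1 was 0.534 times.

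The tumor necrosis factor genes of the same list did not pass. Tnf was at 0.576, 1.14 and 3.15 FPKM in ILC210, against 5.21 and 2.92 FPKM in Treg10+ (adjusted p = 0.0978). Lta was at 1.14, 2.00 and 2.75 FPKM in ILC210, against 2.93 and 6.34 FPKM in Treg10+ (adjusted p = 0.0883). Tnfsf11, encoding RANKL, was at 7.85, 10.4 and 8.52 FPKM in ILC210, against 15.6 and 15.9 FPKM in Treg10+, a difference under the 2-fold limit (log2 difference -0.83, adjusted p = 0.0113). Il2, Il3 and Il9 were too low in the 5 libraries to be tested. Il9 and Il3 were listed at 0 in all 5.

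**Figure D1:**
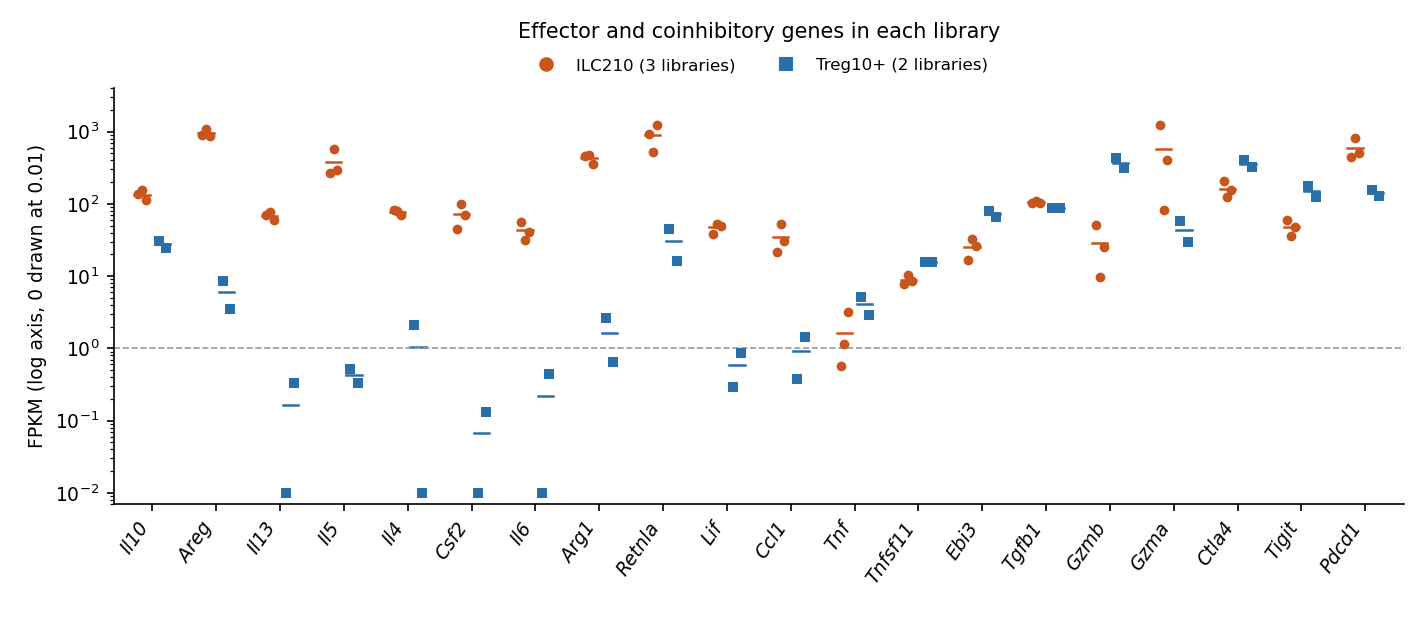
FPKM of 20 effector and coinhibitory genes (log axis, values of 0 drawn at the foot of the axis) in each ILC210 library (circles) and each Treg10+ library (squares), with short lines at the group means and a dashed line at the floor of 1 FPKM. Areg, Il13, Il5 and Arg1 lie far apart between the groups, Il10 lies at 113 to 155 FPKM in ILC210 against 24.2 and 31.0 FPKM in Treg10+, and Gzmb and Ctla4 lie on the Treg10+ side.

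Genes of suppressive molecules, Il10 among them, were divided between the cell types. Of 12 tested, 3 were higher in ILC210 (Il10, Areg and Fgl2) and 6 were lower (Gzmb, Lag3, Ebi3, Entpd1, Ctla4 and Nt5e), with a median log2 difference of -0.40 whose sign turned when either Treg10+ library was left out. Fgl2, encoding a secreted fibrinogen-like protein, was at 497, 453 and 383 FPKM in ILC210, against 189 and 122 FPKM in Treg10+ (log2 difference 1.54, adjusted p = 0.0018). Ebi3, encoding a chain of IL-35 and IL-27, was at 16.8, 32.3 and 26.01 FPKM in ILC210, against 79.7 and 65.3 FPKM in Treg10+ (log2 difference -1.58, adjusted p = 0.0044). For Fgl2 and Ebi3 the ILC210 and Treg10+ libraries did not overlap. Entpd1 and Nt5e, which encode the adenosine-forming enzymes CD39 and CD73, had log2 differences of -1.35 (adjusted p = 0.00863) and -1.05 (limma adjusted p = 0.016), the Entpd1 call being lost without Treg10+ replicate 1. The level of Entpd1 in ILC210 was 13.2 times that in ILC2act, within the quartiles of the lung cell genes (9.6 and 13.6). Tgfb1, encoding TGF-β1, was close to equal, at 104, 108.5 and 102 FPKM in ILC210 against 88.8 and 86.8 FPKM in Treg10+ (log2 difference 0.25, 95% interval 0.02 to 0.48). Thus both cell types carried Il10 and Tgfb1 transcripts, and most of the other listed suppressive genes that passed were on the Treg10+ side.

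Of 15 coinhibitory receptor genes tested, 2 were higher in ILC210, near the 12.3% of all genes. Another 8 were lower, beside 7.21% of all genes, and the median log2 difference was -1.17. Pdcd1, encoding PD-1, was at 447, 830 and 504 FPKM in ILC210, against 157 and 128 FPKM in Treg10+ (log2 difference 2.01, 95% interval 1.38 to 2.65, adjusted p = 0.00158). Cd160 was the other receptor gene that was higher, at 10.7, 3.82 and 5.72 FPKM in ILC210 against 1.197 and 1.10 FPKM in Treg10+ (adjusted p = 0.00489). Ctla4 was at 207, 124 and 157 FPKM in ILC210, against 402 and 319 FPKM in Treg10+ (log2 difference -1.17, adjusted p = 0.00774), and the call was lost without ILC210 replicate 2 (log2 difference -0.99) and without Treg10+ replicate 1. Ctla4 transcripts were thus above 100 FPKM in all 5 libraries. Tigit was at 59.2, 35.9 and 48.1 FPKM in ILC210, against 178 and 126 FPKM in Treg10+ (log2 difference -1.68, adjusted p = 0.00199). Btla had the largest difference among the lower ones, at 2.29 to 2.51 FPKM in ILC210 against 25.6 and 20.4 FPKM in Treg10+ (log2 difference -3.25, adjusted p = 5.0e-05), and Lag3, Havcr2, Cd274, Lair1 and Vsir were lower by between 1.40 and 1.94 on the log2 scale, the Havcr2 call being lost without either Treg10+ library and the Lair1 call without Treg10+ replicate 2.

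Genes that define Treg cells were lower in ILC210 as a group, 16 of 18 tested, with none higher and a median log2 difference of -2.13. Izumo1r, encoding a folate receptor family protein, was at 0.0562, 0 and 0.380 FPKM in ILC210, against 323 and 341 FPKM in Treg10+ (log2 difference -8.37, adjusted p = 5.8e-07). Tnfrsf4, encoding OX40, was at 3.55, 5.14 and 5.94 FPKM in ILC210, against 1041 and 754 FPKM in Treg10+ (log2 difference -7.54, adjusted p = 4.3e-06). Penk, encoding proenkephalin, was at 4.87, 5.67 and 4.68 FPKM in ILC210, against 170 and 131 FPKM in Treg10+ (log2 difference -4.88, adjusted p = 5.0e-06). In these 3 genes the groups did not overlap. Ikzf2 and Ikzf4, encoding the FOXP3 partners Helios and Eos, differed by -3.52 (adjusted p = 1.3e-04) and -3.97 (adjusted p = 3.7e-05). The members that did not pass were Il2ra, encoding CD25, at 42.9, 49.2 and 35.9 FPKM in ILC210 against 86.4 and 63.4 FPKM in Treg10+ (log2 difference -0.81, 95% interval -1.24 to -0.37), and Nrp1 (log2 difference -0.57, 95% interval -1.22 to 0.08). Among the lower members, Ctla4, Tnfrsf18, encoding GITR, and Capg were still above 100 FPKM in every ILC210 library.

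The T cell receptor signalling list showed 15 of 18 tested lower in ILC210, none higher and a median log2 difference of -4.14. Cd3e was at 1.18, 0.921 and 2.53 FPKM in ILC210, against 580 and 511 FPKM in Treg10+, the largest difference on the Treg10+ side (log2 difference -8.56, adjusted p = 1.5e-05). Cd4 was at 0.0806, 0.166 and 0.749 FPKM in ILC210, against 195 and 189 FPKM in Treg10+ (log2 difference -7.58, adjusted p = 9.9e-07). CD3ε and CD4 were among the surface proteins used to exclude T cells from the ILC2 gate, so that the gate and the cell type cannot be told apart for these genes. Cd3g stood apart from the other CD3 genes, since it was present in ILC210 at 21.2, 19.9 and 21.5 FPKM, against 562 and 478 FPKM in Treg10+ (log2 difference -4.64, adjusted p = 1.6e-06), and ILC2act held more, at 85.2, 97.4 and 121 FPKM. Some intracellular members differed less. Skap1 (log2 difference -0.01, 95% interval -0.35 to 0.32) and Lcp2 (-0.74) did not pass, and Zap70 was at 56.2 to 68.3 FPKM in ILC210 against 135 and 123 FPKM in Treg10+ (log2 difference -1.06, adjusted p = 8.1e-04).

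ILC2 identity genes were higher in ILC210 for 17 of 31 tested and lower for 1, with a median log2 difference of 1.58. The list holds several genes that Treg10+ also carried at high levels. Gata3, encoding the type 2 lineage factor, was at 326, 408 and 271 FPKM in ILC210, against 103 and 115 FPKM in Treg10+ (log2 difference 1.60, adjusted p = 7.9e-04). Il1rl1, encoding the IL-33 receptor, was at 111, 107.5 and 99.6 FPKM in ILC210, against 39.9 and 31.4 FPKM in Treg10+ (log2 difference 1.58, adjusted p = 1.9e-04), and surface ST2 was part of the ILC2 gate. Klrg1, encoding an inhibitory lectin receptor, was at 870, 796 and 669 FPKM in ILC210, against 1158 and 781 FPKM in Treg10+ (log2 difference -0.30, 95% interval -0.83 to 0.24). The genes with the largest differences encode enzymes, a neuropeptide and receptors that were low in Treg10+. Alox5, encoding 5-lipoxygenase, was at 59.2, 103 and 47.2 FPKM in ILC210, against 0.220 and 0.357 FPKM in Treg10+ (log2 difference 6.05, adjusted p = 2.7e-05). Calca, encoding the neuropeptide CGRP, was at 35.6, 85.4 and 51.8 FPKM in ILC210 and was listed at 0 in both Treg10+ libraries (adjusted p = 4.8e-05). Il17rb, encoding the IL-25 receptor, was at 118, 115 and 104 FPKM in ILC210, against 6.45 and 7.26 FPKM in Treg10+ (log2 difference 4.03, adjusted p = 3.0e-06). In these 3 genes every ILC210 library lay above both Treg10+ libraries. Receptor genes for neural and lipid signals followed, with log2 differences of 4.69 for Vipr2, 4.68 for Ramp3, 3.47 for Cysltr1 and 2.89 for the neuromedin U receptor gene Nmur1. Tox, encoding a nuclear factor of innate lymphoid and T cell development, was the member on the Treg10+ side, at 22.6 to 28.1 FPKM in ILC210 against 76.4 and 59.4 FPKM in Treg10+ (log2 difference -1.43, adjusted p = 6.1e-04).

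**Figure D2:**
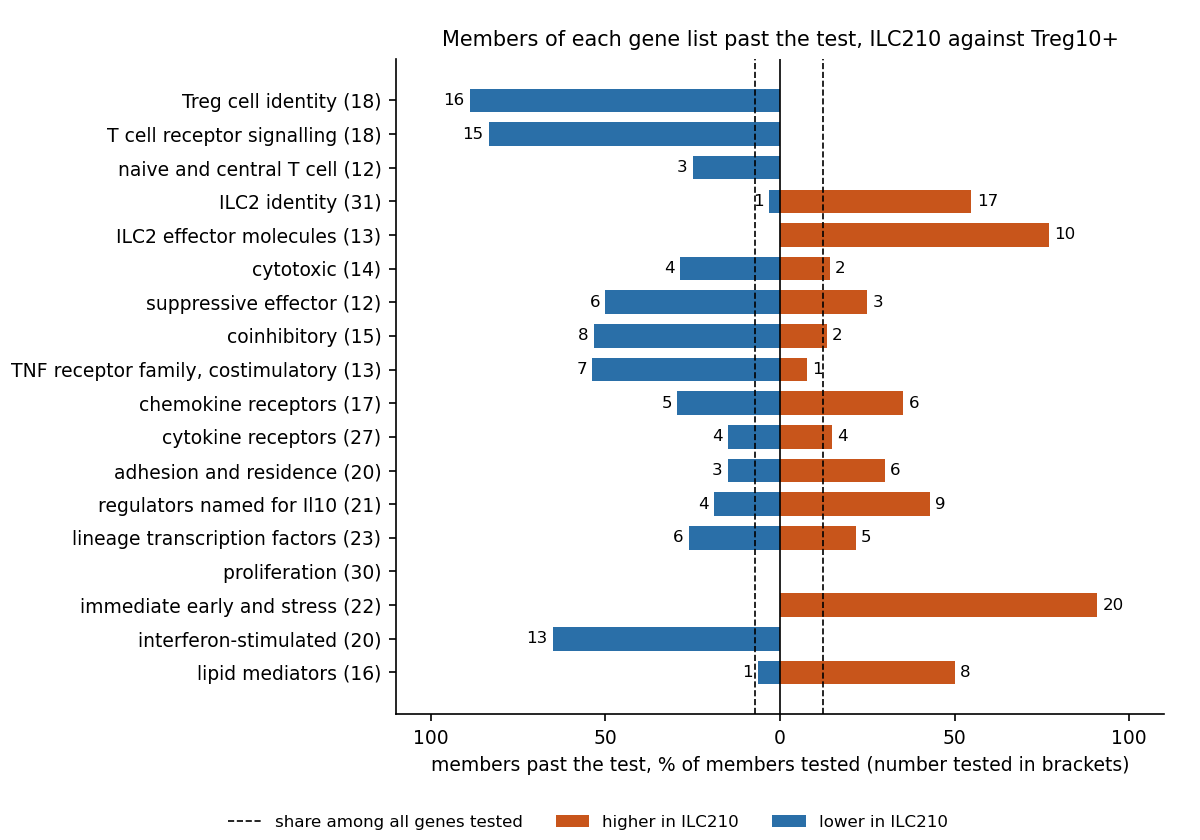
Share of the tested members of 18 gene lists that were higher (orange, to the right) or lower (blue, to the left) in ILC210 than in Treg10+, in percent, with the number of such genes beside each bar and the number tested in brackets. Dashed lines mark the shares among all genes tested, 12.3% higher and 7.21% lower. Immediate early and ILC2 effector genes reach furthest to the right, Treg cell and T cell receptor genes furthest to the left, and no proliferation gene passed.

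Lineage transcription factors were split, with 5 higher and 6 lower in ILC210 of 23 tested, beside 12.3% and 7.21% of all genes. Besides Gata3, the factors on the ILC210 side were Rora, Id2, Pparg and Nfil3. Id2, encoding an inhibitor of E proteins, was at 736, 768 and 604 FPKM in ILC210, against 146 and 128 FPKM in Treg10+ (log2 difference 2.35, adjusted p = 7.0e-05). Pparg, encoding a lipid-sensing nuclear receptor, was at 52.4, 58.9 and 45.1 FPKM in ILC210, against 14.5 and 10.4 FPKM in Treg10+ (log2 difference 2.07, adjusted p = 2.4e-04). Besides Foxp3, Ikzf2, Ikzf4 and Tox, the factors on the Treg10+ side were Tbx21 and Zbtb7b. Tbx21, encoding T-bet, was at 0.372, 0.484 and 0.957 FPKM in ILC210, against 13.1 and 12.8 FPKM in Treg10+ (log2 difference -3.70, adjusted p = 3.1e-05). Zbtb7b, encoding the CD4 lineage factor ThPOK, was at 4.96, 5.62 and 5.47 FPKM in ILC210, against 24.1 and 31.6 FPKM in Treg10+ (log2 difference -2.37, adjusted p = 1.3e-04). Ets1, Runx1, Bcl11b, Lef1, Tcf7 and Satb1 had log2 differences between -0.40 and 0.08 and did not pass. The list of naive and central T cell genes gave 3 lower of 12 tested, Cd27 and Ltb among them, beside 7.21% of all genes. In this list none was higher, beside 12.3% of all genes, and the median log2 difference was -0.17. The Ltb call was lost without either Treg10+ library.

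Among 21 tested genes of factors linked to Il10 transcription or named with it, 9 were higher and 4 lower in ILC210. Of all genes tested, 12.3% were higher and 7.21% lower. The list holds Atf3, Foxf1, Id3, Klf2 and Socs3, which the paper had reported as higher in ILC210 than in ILC2act from these libraries. The count therefore rests in part on genes picked from the same data. The paper also reported the differences of Id3, Foxf1, Atf3 and Klf2 by RT-qPCR. In cultured ILC2 under conditions that generate ILC210 it reported higher Foxf1, Klf2, Atf3 and Socs3. Cells with the higher Il10 level did not have the higher level of each factor. Maf, encoding c-MAF, which drives Il10 in T cells, was at 12.4, 12.5 and 13.3 FPKM in ILC210, against 37.1 and 50.6 FPKM in Treg10+ (log2 difference -1.77, 95% interval -2.15 to -1.39, adjusted p = 2.8e-04). Prdm1, encoding BLIMP-1, was at 8.33, 10.4 and 9.81 FPKM in ILC210, against 37.1 and 42.2 FPKM in Treg10+ (log2 difference -2.06, adjusted p = 1.2e-04). Nfatc1, encoding a calcium-regulated factor, was lower as well (log2 difference -1.61, adjusted p = 2.2e-04). Maf and Prdm1 thus differed in the opposite direction to Il10. Irf4 (log2 difference -0.99, adjusted p = 0.0115) and Batf (-0.94, adjusted p = 0.00127) stayed under the 2-fold limit, and Stat3 was at 64.1 to 80.0 FPKM in ILC210 against 73.0 and 91.7 FPKM in Treg10+.

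Among the factors on the ILC210 side, Atf3, Foxf1, Bhlhe40 and Fosl2 had the largest differences. Bhlhe40 was at 290, 471 and 336 FPKM in ILC210, against 5.70 and 6.85 FPKM in Treg10+ (log2 difference 5.84, adjusted p = 6.4e-06). Fosl2, encoding an AP-1 subunit, was at 44.8, 60.0 and 64.4 FPKM in ILC210, against 0.305 and 0.564 FPKM in Treg10+ (log2 difference 5.80, adjusted p = 5.0e-06). Atf3 was at 81.3, 132 and 108 FPKM in ILC210, against 0.325 and 0.280 FPKM in Treg10+ (log2 difference 6.72, adjusted p = 4.0e-06). In all 3 genes each ILC210 library exceeded both Treg10+ libraries by over 10-fold, and the ratio between ILC210 and ILC2act was 0.545 for Bhlhe40, 0.993 for Fosl2 and 3.82 for Atf3. The difference was smaller for Ahr, encoding the aryl hydrocarbon receptor, at 22.6, 29.5 and 27.7 FPKM in ILC210 against 10.7 and 11.5 FPKM in Treg10+ (log2 difference 1.25, adjusted p = 0.00112). Foxf1, a factor of lung mesenchyme and endothelium, was at 53.5, 78.0 and 79.8 FPKM in ILC210 and was listed at 0 in both Treg10+ libraries. Its level in ILC210 was 14 times that in ILC2act, close to the upper quartile of the lung cell genes (13.6), and the part of lung cell RNA in it was not tested. Id3 was at 52.3, 120 and 123 FPKM in ILC210, against 50.2 and 49.2 FPKM in Treg10+ (adjusted p = 0.106), and Klf2 was at 151, 161 and 177 FPKM in ILC210, against 181 and 202 FPKM in Treg10+ (log2 difference -0.23, 95% interval -0.52 to 0.06). Their levels in ILC210 were 12.2 times (Id3) and 3.74 times (Klf2) those in ILC2act. The ratio of Id3 lies within the quartiles of the lung cell genes (9.6 and 13.6). Those of Klf2 and Atf3 (3.82) lie below the lower quartile, though within the full range (2.42 to 17.1). The part of lung cell RNA in these 3 genes was not tested.

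**Figure D3:**
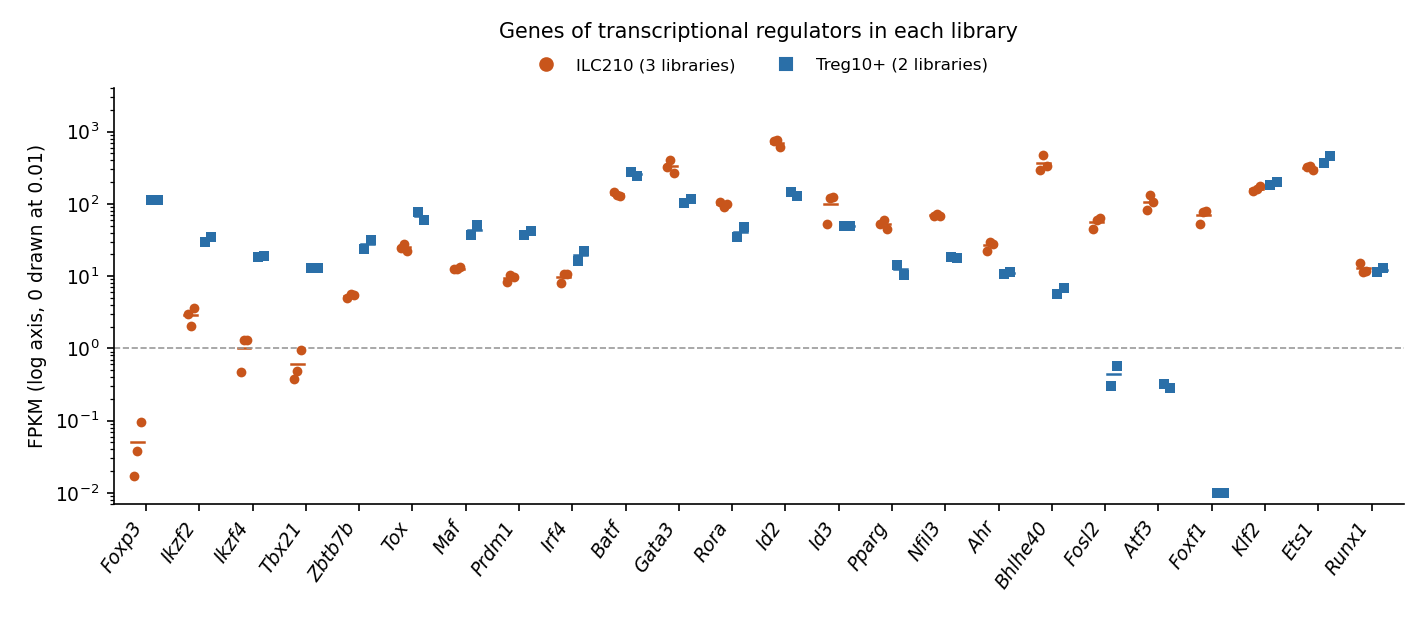
FPKM of 24 genes of transcriptional regulators (log axis, values of 0 drawn at the foot of the axis) in each ILC210 library (circles) and each Treg10+ library (squares), with short lines at the group means and a dashed line at the floor of 1 FPKM. Foxp3 lies below 0.1 FPKM in ILC210 against 112 FPKM in Treg10+, Maf and Prdm1 are lower in ILC210, and Bhlhe40, Fosl2 and Atf3 are higher.

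Immediate early and stress genes, which cells transcribe soon after a stimulus, were higher in ILC210 for 20 of 22 tested, with a median log2 difference of 3.51. Fos was at 491, 534 and 494 FPKM in ILC210, against 4.02 and 3.87 FPKM in Treg10+ (log2 difference 7.00, adjusted p = 2.9e-07). Nr4a1 was at 1235, 1849 and 1215 FPKM in ILC210, against 45.9 and 42.2 FPKM in Treg10+ (log2 difference 5.00, adjusted p = 1.1e-05). The heat shock gene Hspa1a was at 13.4, 22.4 and 20.1 FPKM in ILC210, against 0.266 and 0.531 FPKM in Treg10+ (log2 difference 4.19, adjusted p = 5.6e-05). Jund and the constitutive chaperone gene Hspa8 were the members that did not pass. Lungs were digested with Liberase, and how spleens were taken apart is not given in the sources used here, so that the handling of the organ and the cell type cannot be told apart for this list. In ILC2act Fos was at 490, 665 and 606 FPKM. The ratio between ILC210 and ILC2act had a median of 1.19 over the 22 genes (quartiles 0.868 and 1.56), with 8.15 for Hspa1a, 5.42 for Hspa1b and the highest, 11.3, for Ier3.

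Interferon-stimulated genes went the other way, with 13 of 20 tested lower in ILC210, none higher and a median log2 difference of -1.54. Isg15, encoding a ubiquitin-like protein, was at 24.4, 14.7 and 16.8 FPKM in ILC210, against 64.9 and 55.4 FPKM in Treg10+ (log2 difference -1.72, adjusted p = 0.00133). Ifit1 was at 3.28, 2.37 and 3.97 FPKM in ILC210, against 29.5 and 16.5 FPKM in Treg10+ (log2 difference -2.82, adjusted p = 8.0e-04). Igtp, encoding an interferon-γ-inducible GTPase, was at 33.1, 26.6 and 24.5 FPKM in ILC210, against 204 and 153 FPKM in Treg10+ (log2 difference -2.67, adjusted p = 7.1e-05). In each of these 3 genes both Treg10+ libraries were above all ILC210 libraries. Ifng itself was too low to be tested, at 0.174, 0 and 0.0414 FPKM in ILC210 against 1.83 and 0.987 FPKM in Treg10+.

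The promoters of Isg15, Ifit1 and Igtp are shown because the interferon-stimulated response element (GAAA, any 2 bases and GAAA again, which reads TTTC, any 2 bases and TTTC on the other strand) is a feature of many of the listed genes that the expression data did not use. It was found on either strand in the 250 bases before the start site of 9 of the 15 listed genes with an entry (60%), against 3.46% of 27025 genes, and overlapping matches occurred in Isg15. Of these 9 genes, 7 were lower in ILC210, and Ifit3 and Bst2 did not pass. The sequences (RefSeq, GRCm38.p6, 5′ to 3′, matches in capitals) lie at chr4:156200839-156200938 on the minus strand for Isg15, chr19:34640749-34640848 on the plus strand for Ifit1 and chr11:58199456-58199555 on the plus strand for Igtp.
Isg15: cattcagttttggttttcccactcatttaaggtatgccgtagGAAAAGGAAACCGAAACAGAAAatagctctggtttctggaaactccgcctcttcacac
Ifit1: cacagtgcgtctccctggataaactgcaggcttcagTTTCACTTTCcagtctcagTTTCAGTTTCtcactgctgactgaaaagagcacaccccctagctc
Igtp: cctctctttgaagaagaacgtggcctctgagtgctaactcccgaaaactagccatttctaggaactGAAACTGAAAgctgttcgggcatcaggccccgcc

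No proliferation gene passed of 30 tested, and the median log2 difference was 0.22. Mki67 was at 57.5, 39.4 and 46.6 FPKM in ILC210, against 38.0 and 49.7 FPKM in Treg10+ (log2 difference 0.12, 95% interval -0.33 to 0.58). Top2a was at 120, 79.9 and 88.4 FPKM in ILC210, against 69.0 and 73.7 FPKM in Treg10+ (log2 difference 0.41, 95% interval -0.01 to 0.83). The largest difference in the list, 0.67 for the replication gene Mcm3, lies under the 2-fold limit (95% interval 0.35 to 0.99, adjusted p = 0.0094).

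Receptors for chemokines differed in both directions, with 6 higher and 5 lower in ILC210 of 17 tested, beside 12.3% and 7.21% of all genes. Ackr3 had the largest difference among the higher ones (log2 difference 4.21, limma adjusted p = 6.0e-05). It was at 23.4, 13.6 and 20.1 FPKM in ILC210, against 0.503 and 0.541 FPKM in Treg10+. Its ratio between ILC210 and ILC2act was 13.5, near the upper quartile of the lung cell genes (13.6), and the part of lung cell RNA in it was not tested. Cxcr6 was at 888, 1418 and 855 FPKM in ILC210, against 126 and 98.0 FPKM in Treg10+ (log2 difference 3.21, adjusted p = 1.4e-04), and Ccr8 was at 359, 604 and 366 FPKM in ILC210, against 119 and 102 FPKM in Treg10+ (log2 difference 1.96, adjusted p = 0.0011). On the other side, Cxcr3, a receptor of interferon-induced chemokines, was at 0.0829, 0.155 and 0.326 FPKM in ILC210, against 141 and 147 FPKM in Treg10+ (log2 difference -7.17, adjusted p = 1.5e-06), and Ccr6 was at 0.343, 0.395 and 1.79 FPKM in ILC210, against 48.3 and 61.2 FPKM in Treg10+ (log2 difference -5.48, adjusted p = 3.7e-05). Cxcr3 and Ccr6 were thus at or below 1.79 FPKM in each ILC210 library. Cxcr5, Ccr3 and Ccr10 were also lower in ILC210, the Cxcr5 call being lost without either Treg10+ library. Ccr4 and Ccr2 had log2 differences of -0.95 and -0.76 and stayed under the 2-fold limit.

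Adhesion and residence genes showed 6 members higher and 3 lower in ILC210 of 20 tested, beside 12.3% and 7.21% of all genes. Itgb3, encoding the integrin β3 chain, was at 121, 102 and 94.2 FPKM in ILC210, against 11.96 and 12.96 FPKM in Treg10+ (log2 difference 3.08, adjusted p = 1.5e-05), at a ratio of 0.992 between ILC210 and ILC2act. Cd69, which retains lymphocytes in tissues, was at 731, 779 and 502 FPKM in ILC210, against 88.1 and 66.5 FPKM in Treg10+ (log2 difference 3.11, adjusted p = 1.0e-04). Itgae, encoding CD103, was lower and had a log2 difference of -2.21 (adjusted p = 1.5e-04). The residence-associated regulators Rgs1 and Rgs2 were higher by 2.96 and 6.59 on the log2 scale. Itga1 was at 6.07, 6.79 and 7.76 FPKM in ILC210, against 0.538 and 0.267 FPKM in Treg10+ (log2 difference 2.77, limma adjusted p = 1.4e-04). The ratio of Itga1 between ILC210 and ILC2act was 13.7, close to the upper quartile of the lung cell genes (13.6), and the part of lung cell RNA in it was not tested. S1pr1, encoding the receptor for lymphocyte egress, stayed under the 2-fold limit, at 66.6, 62.1 and 67.9 FPKM in ILC210, against 98.3 and 106 FPKM in Treg10+ (log2 difference -0.64, adjusted p = 0.0037).

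In the TNF receptor and costimulatory list 7 of 13 tested were lower and 1 was higher in ILC210. Among all genes 7.21% were lower and 12.3% higher, and the median log2 difference of the list was -1.34. Cd28, encoding the costimulatory receptor of T cells, was at 3.67, 1.26 and 3.42 FPKM in ILC210, against 78.8 and 83.8 FPKM in Treg10+ (log2 difference -5.02, adjusted p = 2.6e-04), and Tnfrsf9, encoding 4-1BB, was at 8.19 to 11.5 FPKM in ILC210 against 211 and 156 FPKM in Treg10+ (log2 difference -4.19, adjusted p = 1.7e-05). Icos, encoding a costimulatory receptor, stayed under the 2-fold limit, at 176, 156 and 179 FPKM in ILC210 against 316 and 303 FPKM in Treg10+ (log2 difference -0.86). Cytokine receptor genes gave 4 higher and 4 lower of 27 tested, beside 12.3% and 7.21% of all genes. Il1r2, encoding the decoy receptor of IL-1, was at 200, 267 and 194 FPKM in ILC210, against 19.6 and 18.7 FPKM in Treg10+ (log2 difference 3.51, adjusted p = 1.5e-05), whereas Il21r (-4.15, adjusted p = 9.9e-05), Il6ra (-2.83, adjusted p = 0.00323) and Il2rb (-2.04, adjusted p = 4.6e-05) were lower. The IL-10 receptor genes stayed under the limit as well, with log2 differences of 0.13 for Il10ra (95% interval -0.30 to 0.57) and -0.62 for Il10rb (95% interval -0.85 to -0.38).

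Lipid mediator genes were higher in ILC210 for 8 of 16 tested and lower for 1, beside 12.3% and 7.21% of all genes. Besides Alox5, Ptgs2, encoding cyclooxygenase-2, was at 52.4, 44.7 and 48.4 FPKM in ILC210 and was listed at 0 in both Treg10+ libraries (adjusted p = 2.5e-06). Ptgir, encoding the prostacyclin receptor, was at 67.0, 98.4 and 63.2 FPKM in ILC210, against 7.25 and 8.90 FPKM in Treg10+ (log2 difference 3.22, adjusted p = 7.1e-05). Genes of prostaglandin and leukotriene synthesis and of a prostaglandin receptor were thus among the higher ones. Dgat1, encoding a triglyceride synthase, had a log2 difference of 1.86 (adjusted p = 6.5e-04). Ltc4s and Ptges, which were below 5 FPKM in ILC210, were at 11.4 and 5.58 times their ILC2act level. Ptger2, encoding a prostaglandin E2 receptor, was the lower member, at 0.915, 1.99 and 2.31 FPKM in ILC210 against 5.46 and 4.36 FPKM in Treg10+ (adjusted p = 0.0214), a call that was lost without either Treg10+ library.

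Genes at high and similar levels in both cells were sought among the 292 listed genes that were tested. Of these, 82 had their 95% interval within 1 log2 unit of 0, a smaller share than the 57.8% of all genes tested. The most abundant were Hspa8, the integrin gene Itgb7, the galectin gene Lgals1, the shared cytokine receptor chain gene Il2rg, Klrg1, Ly6a, the selectin ligand gene Selplg, Ets1, the integrin gene Itgb2 and Cd81. Itgb7 was at 1537, 1433 and 1187 FPKM in ILC210, against 1461 and 1378 FPKM in Treg10+ (log2 difference -0.04, 95% interval -0.52 to 0.44). Lgals1 was at 1265, 995 and 920 FPKM in ILC210, against 866 and 712 FPKM in Treg10+ (log2 difference 0.42, 95% interval -0.07 to 0.91).

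The 15 genes of largest difference on the ILC210 side, leaving out those in the lists of other cells, were Il5, Arg1, Chia, Chi3l1, Tspan7, Areg, Cyp4b1, Cbr2, Fos, Ier3, Atf3, Gpx3, Gpihbp1, Rgs2 and Igfbp7. Of these, 8 were at 5 or more times their ILC2act level. They include Chia, encoding acidic mammalian chitinase, at 240, 225 and 248 FPKM in ILC210 and listed at 0 in both Treg10+ libraries, with a ratio of 15.4 to ILC2act, and Gpihbp1, a capillary endothelial gene, at 88.8, 98.1 and 105 FPKM in ILC210 and listed at 0 in both Treg10+ libraries, with a ratio of 11.1. The ratios of Chi3l1, Tspan7, Cyp4b1, Cbr2 and Gpx3 were 16.1, 11.4, 13, 14.7 and 10.8. The ratios of Ier3, Atf3 and Igfbp7 were 11.3, 3.82 and 4.99. By contrast those of Il5, Areg, Fos, Arg1 and Rgs2 lay between 0.534 and 1.28. On the Treg10+ side the 15 largest were Cd3e, Cd6, Izumo1r, Cd3d, Cd5, Cd4, Tnfrsf4, Cxcr3, Foxp3, Sit1, Cd247, Sh2d1a, Art2b, Ccr6 and Ifi27l2a, of which Cd3e, Cd6, Cd3d, Cd5, Cd4 and Cd247 are in the T cell receptor signalling list. Sit1, encoding an adaptor of T cell receptor signalling, was at 0.7001, 0.657 and 0.667 FPKM in ILC210, against 86.5 and 73.1 FPKM in Treg10+ (log2 difference -6.31, adjusted p = 3.1e-06).

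Markers of other cells were themselves among the called genes. Of the 59 lung cell genes tested, 53 were higher in ILC210 and 2, Epcam and Hopx, were lower. Sftpc, encoding surfactant protein C of alveolar type 2 cells, was at 4690, 5816 and 7655 FPKM in ILC210, against 0.192 and 0.183 FPKM in Treg10+, and at 354, 364 and 447 FPKM in ILC2act. All 18 endothelial genes tested and all 12 mesenchymal genes tested were higher in ILC210. Macrophage genes were mixed, with 3 higher and 7 lower in ILC210 of 14 tested, beside 12.3% and 7.21% of all genes. Lyz2 was at 584, 687 and 1334 FPKM in ILC210 against 71.9 and 93.9 FPKM in Treg10+, with a ratio of 14.8 to ILC2act. Vcam1 was at 11.03, 10.2 and 15.3 FPKM in ILC210 against 66.5 and 86.1 FPKM in Treg10+. Spic, a factor of splenic red pulp macrophages, was at 0, 0.617 and 0 FPKM in ILC210 against 13.1 and 19.8 FPKM in Treg10+. B cell genes were lower in ILC210 for 7 of 9 tested.

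**Figure D4:**
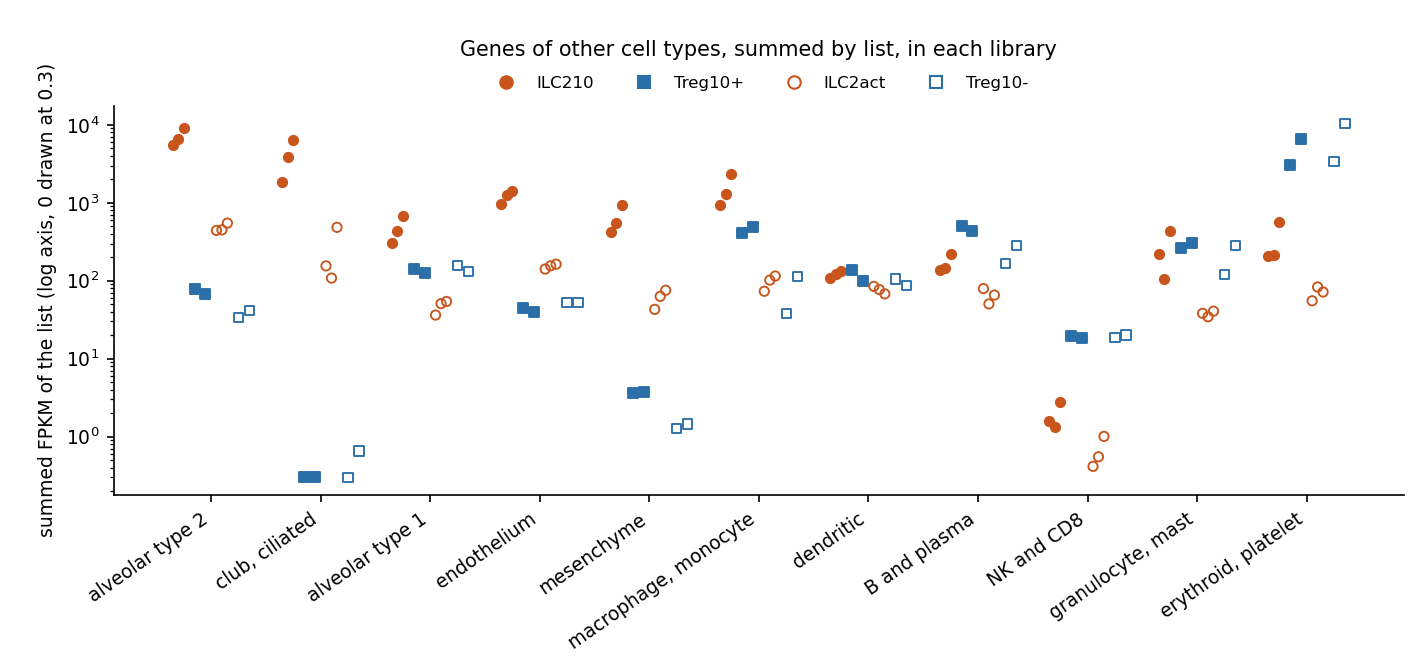
Summed FPKM of 11 lists of genes of other cell types (log axis, sums of 0 drawn at the foot of the axis) in each library of ILC210 (filled circles), Treg10+ (filled squares), ILC2act (open circles) and Treg10- (open squares). The epithelial, endothelial and mesenchymal sums are highest in ILC210, at 5533 to 9026 FPKM for alveolar type 2 genes against 79.1 and 67.9 FPKM in Treg10+, and the erythroid sums are highest in the spleen libraries.

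The same comparison in reporter-negative cells was set beside it. The comparisons share no library, but the library numbers pair each positive sort with a negative one, and both sorts may come from the same mice. Between ILC2act and Treg10-, 986 genes (8.72% of 11308 tested) were higher in ILC2act and 1070 (9.46%) were lower. Of the genes tested in both comparisons, 692 were higher on the ILC2 side in both, which is 62.3% of the 1111 higher in ILC210 and 71.6% of the 966 higher in ILC2act. There were 647 genes lower on the ILC2 side in both, 77.1% of the 839 lower in ILC210 and 61.3% of the 1056 lower in ILC2act. There were 10 genes called in opposite directions. Amigo2, Atp1b1, Cd200, Cd9, Cnn3, Ly6c1, Ms4a4d, Socs3 and Spsb1 were higher in ILC210 than in Treg10+ but lower in ILC2act than in Treg10-, and Lst1 showed the reverse. Cd9, encoding a tetraspanin, was at 80.3, 109 and 140 FPKM in ILC210 against 22.1 and 24.3 FPKM in Treg10+, and at 6.61, 10.7 and 8.82 FPKM in ILC2act against 43.6 and 42.1 FPKM in Treg10-. Its ratio between ILC210 and ILC2act, 12.6, was near the median of the lung cell genes, as were those of Ly6c1 (10.5) and Cd200 (10.6), while that of Socs3 was 5.73, and the part of lung cell RNA in these reversals was not tested.

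The difference between the 2 comparisons was tested directly with limma over all 10 libraries in 12475 genes. It was higher among the reporter-positive cells for 815 (6.53%) and lower for 195 (1.56%). With quantile normalization 670 genes were higher and 330 lower. Of the 59 lung cell genes tested, 49 were among the 815. Of the marker genes, Il13 (-0.35, 95% interval -0.76 to 0.07), Areg (-0.94, 95% interval -2.20 to 0.32), Foxp3 (-0.23, 95% interval -0.68 to 0.23) and Gzmb (1.19, 95% interval -1.20 to 3.59) did not pass. Il10 passed narrowly at -1.35 (95% interval -2.12 to -0.59, adjusted p = 0.0345), the log2 difference being 2.29 among the positive cells and 3.64 among the negative cells. The call was lost on the log2(FPKM + 1) scale, with quantile normalization and without most single libraries, and 1 Treg10- library lay under the floor of 1 FPKM. Tnf (-3.70, adjusted p = 0.00846), Ccl1 (-3.68, adjusted p = 5.6e-04), Csf2 (-3.04, adjusted p = 8.3e-04) and Ccr8 (-2.70, adjusted p = 6.9e-04) differed less, or in the other direction, between ILC210 and Treg10+ than between ILC2act and Treg10-. Klf2 (2.40, adjusted p = 3.2e-04) and the IL-6 receptor chain gene Il6st (2.87, adjusted p = 2.0e-04) were lower in ILC2act than in Treg10- but nearly equal in ILC210 and Treg10+.

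**Figure D5:**
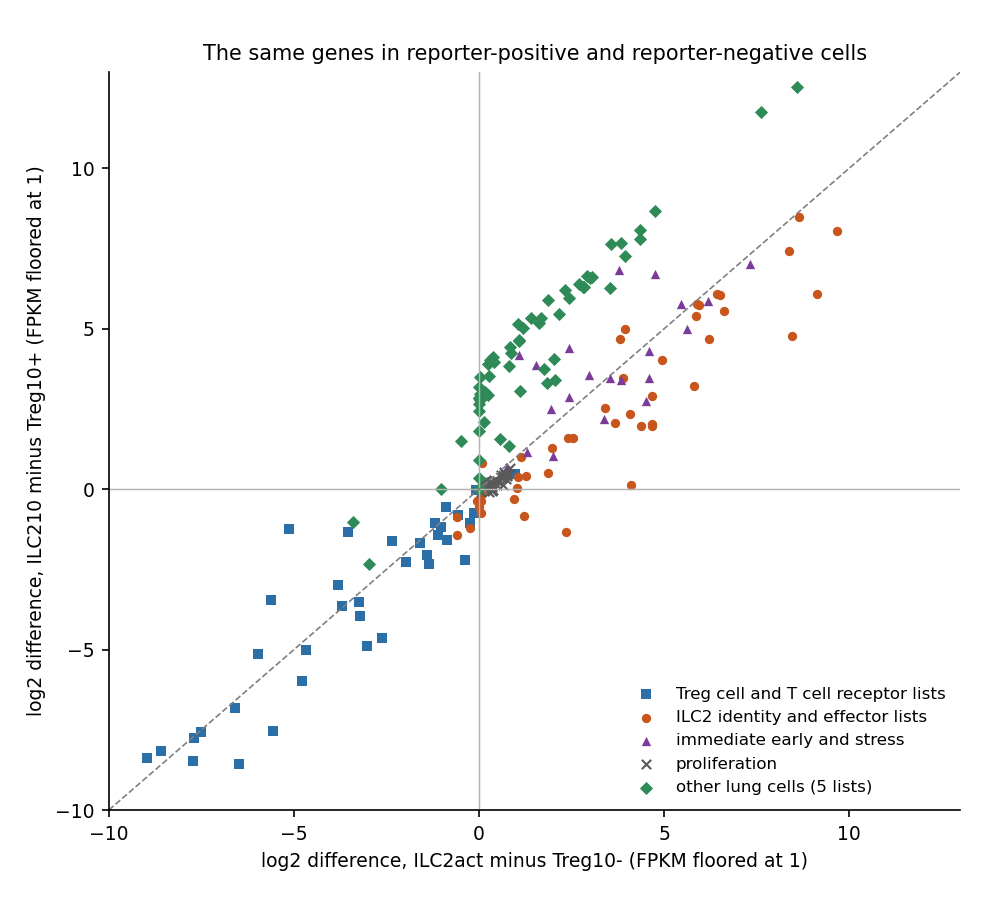
Log2 difference of ILC210 minus Treg10+ (vertical axis) against that of ILC2act minus Treg10- (horizontal axis), both on FPKM floored at 1, for genes of 11 lists, with the dashed line where both are equal. Treg cell and T cell receptor genes (squares) spread around the line, ILC2 genes (circles) lie on or below it for the most part, proliferation genes (crosses) lie near 0 in both, immediate early genes (triangles) lie on both sides of it, and genes of other lung cells (diamonds) lie on or above it.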

How the data were processed

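The members and gene lists were chosen with earlier results of these data known. The authors aligned 75-base reads with TopHat2 2.1.0 to GRCm38 and deposited one table of FPKM values per gene made with Cufflinks 2.2.1. Whether reads were counted by strand is not given in the sources used here. Of 23847 lines, 1 was empty and is not analysed here, 312 genes marked as low data and 2 with missing values were left out, and 23532 were kept. Genes above 1 FPKM in at least 2 of 5 libraries were tested with limma 3.58.1 in R 4.3.3 on log2 of FPKM floored at 1, with a trended prior and Benjamini-Hochberg adjustment over all genes tested. An exact permutation test of 3 against 2 libraries cannot go below p = 0.1 and was not used. The authors' own test, per gene on floored FPKM, was run as an alternative, as were other pseudocounts, filters, scalings and leaving out each library. On simulated data of the ILC210 against Treg10+ comparison (12184 genes), 98% of genes given a log2 change of 1.5 and 100% of those given 2 were recovered. False calls numbered 0 there and 5 in the simulated difference of differences. Each size of change was given to 50 genes, far fewer than the 1498 higher and 878 lower in the data. Changes were placed only in genes whose mean log2 level was at least that of 5 FPKM. The spread was drawn as normal and smoothed over genes. Genes near the floor or with outlying libraries were thus not covered. Intervals at 95% are limma's. Of 432 listed genes 428 were matched, 11 by an older symbol. The text names the markers, genes the study names, the 15 largest differences each way, up to 4 called members each way and 2 others per list, and some further list members chosen after their values were seen. Likeness to Il10 across libraries was not computed, since the libraries fall into 4 separate groups. Promoters came from RefSeq tables (GRCm38.p6).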

Additional observations from a re-analysis of the deposited data

Results flagged for a closer look

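The difference between ILC2 and Treg cells was not the same in reporter-positive and reporter-negative cells for 815 genes that were higher and 195 that were lower in the positive cells (limma over 10 libraries). Ly6c1, a gene of endothelium and lymphocytes, gave the largest positive value, 6.01, with 244, 228 and 287 FPKM in ILC210 against 18.4 and 14.9 FPKM in Treg10+, and 23.3, 27.2 and 21.6 FPKM in ILC2act, below both Treg10- libraries. Id3 followed at 5.58, with 5.51, 10.6 and 8.27 FPKM in ILC2act against 215 and 192 FPKM in Treg10-, and Atp1b1, encoding a sodium pump subunit, at 4.67. The ILC210 level was 10.5 times that of ILC2act for Ly6c1 and 12.2 times for Id3, beside a median of 11.8 for the lung cell genes. The part of lung cell RNA in these values was not tested.

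Snora64 (5.70), Hbb-b1 (4.92) and Mir215 (-8.16) were also among the largest, and their counting is uncertain, since Snora64 lies inside Rps2, Mir215 inside Iars2 and Hbb-b1 overlaps Hbb-b2.

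On the negative side, Tff1, encoding trefoil factor 1, gave -4.53, and its highest levels were 42.7, 34.1 and 56.8 FPKM in ILC2act. Cntn1, encoding the adhesion protein contactin 1, gave -4.47, with 1.01, 1.18 and 1.11 FPKM in ILC210 against 19.3, 27.8 and 27.0 FPKM in ILC2act. Rln3, encoding relaxin 3, gave -4.08, with 4.70, 8.17 and 5.34 FPKM in ILC210 against 262 and 222 FPKM in Treg10+. Il2 gave -3.95, with 0.940, 0.647 and 1.34 FPKM in ILC210 and 13.99, 27.97 and 12.8 FPKM in ILC2act. Il10 gave -1.35 (adjusted p = 0.0345).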

How the results depend on the processing

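The number of genes higher in ILC210 was 1498 and of genes lower 878. Testing all genes without a filter gave 903 and 551, a mean of at least 5 FPKM gave 840 and 550, the per-gene test on floored FPKM gave 180 and 368, the per-gene test on log2 values gave 835 and 503, and a fold of at least 4 gave 775 and 264. Without a fold threshold 2095 genes were higher and 1788 lower. Leaving out 1 library gave 1167 to 1623 higher and 566 to 878 lower, and the lowest counts came without Treg10+ replicate 1. Without either Treg10+ library 142 lower calls were no longer tested, since those genes were above 1 FPKM in the remaining Treg10+ library only. With 1 Treg10+ library left, it is assumed to vary like the ILC210 libraries. Of 155 named genes with a call, 152 kept it with quantile normalization, 153 on the log2(FPKM + 1) scale, 132 without either Treg10+ library, 117 under the per-gene test on log2 values and 45 under that on FPKM. The Il10 call was lost only under the per-gene test on FPKM.

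The difference of differences passed for 433 genes in all with a mean of at least 5 FPKM. Leaving out 1 library gave 600 to 1040 higher and 120 to 214 lower. With the number pair as replicate block 917 genes were higher and 244 lower. No paired analysis was possible for ILC210 against Treg10+ because their libraries share no number pair. Values near 0.434 FPKM in the shallower Treg10+ library rest on about 3 fragments for a transcript of 1 kb.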

Other observations

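Of 7 dendritic cell genes tested, 3 were higher in ILC210 and none lower, and Ccl17, encoding a chemokine, was at 16.1, 23.6 and 28.6 FPKM in ILC210 against 0.739 and 0 FPKM in Treg10+ (log2 difference 4.47, adjusted p = 5.0e-05), with 5.91 to 9.19 FPKM in ILC2act. Of 10 granulocyte and mast cell genes tested, Cpa3, encoding a mast cell protease, was higher, at 14.7, 25.4 and 17.3 FPKM in ILC210 against 1.66 and 0 FPKM in Treg10+ (adjusted p = 1.9e-04), and its level in ILC2act was similar, at 20.6 to 24.8 FPKM. Camp and Mpo, which encode neutrophil granule proteins, were lower in ILC210. Beside the counts of these short lists, 12.3% of all genes were higher and 7.21% lower. Of 2 NK and CD8 T cell genes tested, Cd8b1 was lower, at 0.586, 0.180 and 0.314 FPKM in ILC210 against 16.3 and 12.8 FPKM in Treg10+ (adjusted p = 3.6e-05). No sex-linked gene passed of 4 tested. Erythroid and platelet genes were lower in ILC210 for 7 of 9 table entries tested, and Pf4 was higher.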
